A study of Saccharomyces cerevisiae with 6 samples.

Results

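The genes described here encode enzymes of the tricarboxylic acid (TCA) cycle in budding yeast: CIT1, ACO1, IDH1, IDH2, KGD1, KGD2, LSC1, LSC2, FUM1 and MDH1. They were chosen by name as enzymes of the cycle, and 9 of the 10 had rows in the deposited table, with 32 of its 13565 clusters of polyadenylation (pA) sites. The table holds 4014 genes, each with 2 or more clusters. IDH1 had no row in it and was not analysed here. Budding yeast (Saccharomyces cerevisiae) in mid-log phase gave 6 libraries: 3 lacked JHD2, a histone demethylase gene of the KDM5 family, and 3 were wild type. No other allele or agent is named in the labels, which also do not say whether replicates were separate cultures or 1 clone, so p-values refer to the spread among libraries, and that spread may be technical. In the 3′READS assay each read marks the 3′ end of 1 polyadenylated RNA, and the series asks whether such demethylases act on how long 3′ untranslated regions (UTRs) are. Whole cultures were sampled, so a change in every cell and a change in some of the cells cannot be told apart.

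In the TCA cycle, acetyl groups are joined to oxaloacetate and oxidised in the mitochondrial matrix, which yields reducing power for the respiratory chain and precursors for amino acids. In budding yeast many genes of the cycle are repressed by glucose and activated by the Hap2/3/4/5 complex, and several early ones are also controlled by the retrograde regulators Rtg1 and Rtg3. An mRNA of such a gene ends where the nascent RNA is cleaved and polyadenylated, and most yeast genes use more than 1 such site.

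The deletion libraries held 380332 to 480847 reads in the table and the wild-type libraries 233749 to 368419. JHD2 had 0 clusters in the table, which leaves no reads of its own to check the genotype with. Wild-type replicate 2 stood apart: across genes, the correlation of log levels was 0.938 to 0.948 in pairs that include it and 0.959 to 0.9753 in all other pairs. No pair of libraries differed by as little as sampling noise (chi-square per degree of freedom 1.39 or more). Errors are SDs over the libraries of a group (n = 3), except where given as SE.

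Most 3′ ends of the TCA genes lay in the 3′ UTR, with 29 of the 32 clusters past the stop codon and the other 3 inside the coding regions of ACO1 and KGD1. To show what the sites look like, the sequence around the main and second sites of CIT1, IDH2 and MDH1 and the main sites of KGD2 and LSC1 is printed from the RefSeq assembly R64, the same build as sacCer3. These genes carry most of the reads, and MDH1 is the gene whose mean 3′ end did not overlap between groups. Each line gives 20 bases up to the last aligned base and 10 bases after it, on the strand of the gene. Capitals mark the genomic A bases that end at the last aligned base. An A in the genome cannot be told from the first A of a tail, so the cleavage can lie after any base of the capitals or just before the first of them.
CIT1 main site, 121 nt past the stop codon, chrXIV:629491-629520, minus strand: aaatggctatgacttcatgAtttttacgct
CIT1 second site, 199 nt past the stop codon, chrXIV:629413-629442, minus strand: tcaatgaatagaaaacAAAAtgctcttaaa
IDH2 main site, 157 nt past the stop codon, chrXV:581497-581526, plus strand: aattccgtatctactccAAActtctatggc
IDH2 second site, 266 nt past the stop codon, chrXV:581606-581635, plus strand: tttaataatgctacaggagAccataagtga
KGD2 main site, 128 nt past the stop codon, chrIV:753537-753566, minus strand: taaatggaactatgaattAAtgttttcttt
LSC1 main site, 220 nt past the stop codon, chrXV:594247-594276, plus strand: ttcttcttaacaagggtatAcataaaggtt
MDH1 second site, 50 nt past the stop codon, chrXI:280158-280187, plus strand: tagggAAAAAAAAAAAAAAAttctactaat
MDH1 main site, 162 nt past the stop codon, chrXI:280270-280299, plus strand: aggaaactgccaaaaatcAActagagaaaa

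All 22 TCA sites with 20 or more reads ended in A, as did 94.7% of the main sites of the 2546 genes with 120 or more reads over the 6 libraries. The run of A at the upstream MDH1 site was 15 bases long, a length reached by 0.393% of those main sites, whose median run was 2 bases. The distal LSC1 site, 264 nt past the stop codon, ended in 9 A bases. The letters TATATA, which resemble the efficiency element of yeast pA sites, lay in the 60 nt up to the main site in 2 of the 9 TCA genes and in 32.4% of all 2546 genes. TACATA, searched the same way, was found at 4 of the 9 main sites against 15.4% of all. All were searched on the strand of the gene only and can overlap each other, and a match here is a match of letters.

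mRNA levels of the cycle genes were mostly somewhat higher in the deletion, and no single gene passed the test over all genes. Of the 9 tested members, 8 had a log2 fold change above 0 and 1 (MDH1) below it, where 50% of all 3366 tested genes lay above 0. The median log2 fold change was 0.30 over the 9 genes and -0.00026 over all tested genes. By the quasi-likelihood test of edgeR with Benjamini-Hochberg adjustment, 0 of the 9 passed in either direction, against 1.07% of all genes called higher and 0.238% called lower (1.31% in either direction). At an unadjusted p under 0.05 there were 4 members, CIT1, ACO1, IDH2 and LSC2, all higher, against 5.64% of all genes higher and 4.19% lower. The Wald test of DESeq2 called 0 of the 9 as well, though it gave KGD1 no adjusted p, so KGD1 could not be called there. In 4 genes, CIT1, ACO1, IDH2 and KGD2, every deletion library lay above every wild-type library, which held for 8.62% of all tested genes.

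Summed over the 9 genes, the level was 4502, 4481 and 4696 CPM (TMM-scaled counts per 1e6 reads of the tested genes) in deletion replicates 1, 2 and 3, against 3544, 3602 and 3711 CPM in wild-type replicates 1, 2 and 3. The groups did not overlap, and the ratio of their means was 1.26. Without CIT1 the sums averaged 3325 ± 88.0 CPM in the deletion and 2720 ± 90.1 CPM in wild type, a ratio of 1.22. Most of the difference in the sum of all 9 came from the abundant genes IDH2 and CIT1. Their means were 1496 and 1235 CPM in the deletion, against 1116 and 899 CPM in wild type. A sum without IDH2 was not formed. No test was made of these sums, since the genes were named with earlier results of the same libraries in view.

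**Figure D1:**
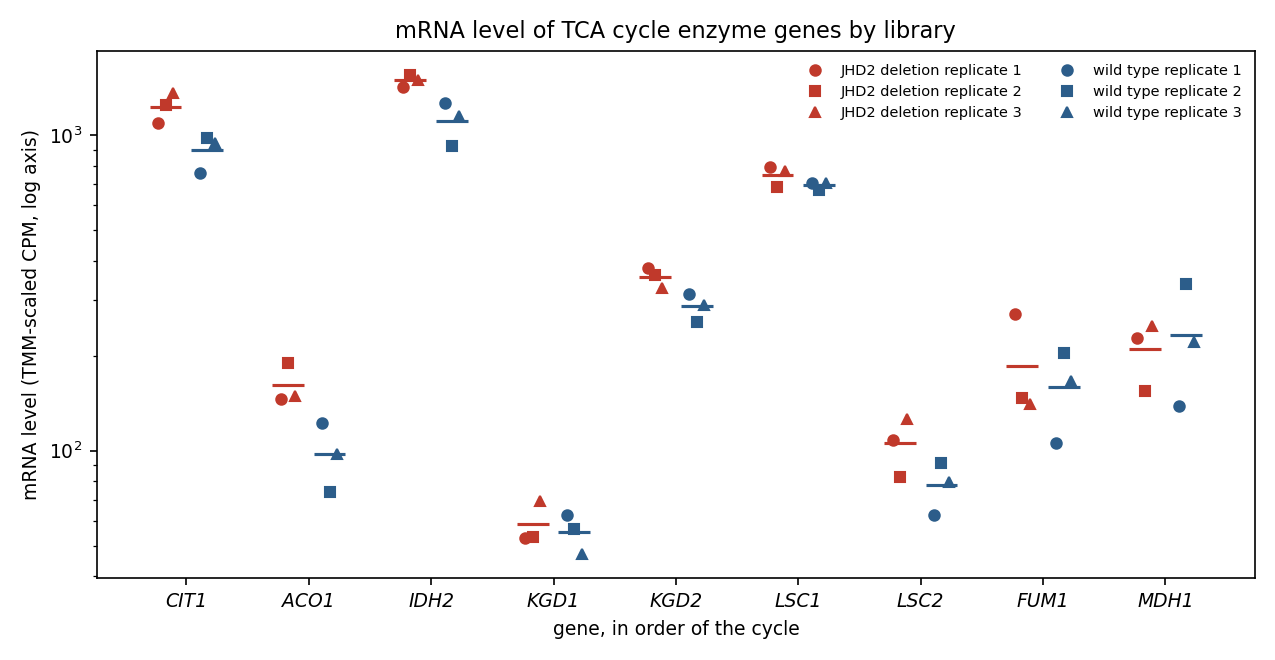
mRNA level of 9 TCA cycle genes in each library, as TMM-scaled counts per 1e6 reads on a log axis, with JHD2 deletion libraries in red left of wild-type libraries in blue; marker shapes give the replicate number and short bars the group means. For CIT1, ACO1, IDH2 and KGD2 all 3 deletion libraries lie above all 3 wild-type libraries, and for the other genes the groups overlap.

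The enzymes of the first steps had the lowest p-values. CIT1 (YNR001C, chromosome XIV, 629622 to 631061, minus strand) encodes the mitochondrial citrate synthase, which joins acetyl-CoA to oxaloacetate. It stood at 1095, 1249 and 1359 CPM in deletion replicates 1, 2 and 3, against 763, 985 and 949 CPM in wild-type replicates 1, 2 and 3. The groups did not overlap, with wild-type replicate 1 as the low library. The CIT1 log2 fold change was 0.47 (SE 0.14, 95% interval 0.19 to 0.74, adjusted p = 0.089, edgeR), a ratio of 1.38. Without wild-type replicate 2, the library that stood apart, CIT1 rose past the threshold (0.53, adjusted p = 0.010, edgeR), and without any 1 of the other libraries its adjusted p was 0.086 to 0.41.

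ACO1 (YLR304C, chromosome XII, 735212 to 737548, minus strand) encodes aconitase, which turns citrate into isocitrate and also binds mitochondrial DNA. ACO1 had 61, 71 and 71 reads in deletion replicates 1, 2 and 3, against 45, 17 and 27 reads in wild-type replicates 1, 2 and 3. As levels these were 146, 190 and 149 CPM in the deletion and 122, 73.8 and 97.7 CPM in wild type. The lowest deletion library exceeded the highest wild-type library. The ACO1 log2 fold change of 0.67 (SE 0.21, 95% interval 0.24 to 1.10, adjusted p = 0.13, edgeR) was the highest of the 9 genes. It ran from 0.52 to 0.88 when 1 library was left out, lowest without wild-type replicate 2 (adjusted p = 0.35, edgeR). IDH2 (YOR136W, chromosome XV, 580250 to 581359, plus strand) encodes the catalytic subunit of the NAD-dependent isocitrate dehydrogenase. It stood at 1428, 1559 and 1502 CPM in deletion replicates 1, 2 and 3, against 1267, 924 and 1155 CPM in wild-type replicates 1, 2 and 3. The groups did not overlap, and wild-type replicate 2 was the lowest library. The IDH2 log2 fold change was 0.42 (SE 0.13, 95% interval 0.15 to 0.69, adjusted p = 0.14, edgeR). Leaving out 1 library gave 0.29 to 0.51, lowest without wild-type replicate 2 (adjusted p = 0.28, edgeR).

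The alpha-ketoglutarate dehydrogenase complex oxidises alpha-ketoglutarate to succinyl-CoA. KGD2 (YDR148C, chromosome IV, 753675 to 755066, minus strand), its succinyltransferase component, stood at 379, 360 and 328 CPM in deletion replicates 1, 2 and 3, against 315, 256 and 290 CPM in wild-type replicates 1, 2 and 3. The deletion libraries lay above the wild-type ones by a small margin (log2 fold change 0.30, SE 0.16, adjusted p = 0.55, edgeR). Without wild-type replicate 2 the KGD2 log2 fold change was 0.22 (adjusted p = 0.72, edgeR). KGD1 (YIL125W, chromosome IX, 122689 to 125733, plus strand), the dehydrogenase component, had 22, 20 and 33 reads in deletion replicates 1, 2 and 3, against 23, 13 and 13 reads in wild-type replicates 1, 2 and 3. Its levels averaged 58.5 ± 9.41 CPM in the deletion and 55.3 ± 7.74 CPM in wild type, and the groups overlapped. With a 95% interval of -0.48 to 0.63 around a log2 fold change of 0.08, the depth of KGD1 could show neither a rise nor a fall of the size seen for CIT1.

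Succinyl-CoA ligase, which makes succinate and a nucleoside triphosphate, has the alpha subunit gene LSC1 and the beta subunit gene LSC2. LSC1 (YOR142W, chromosome XV, 593057 to 594046, plus strand) stood at 795, 686 and 773 CPM in deletion replicates 1, 2 and 3, against 708, 673 and 706 CPM in wild-type replicates 1, 2 and 3. The groups overlapped and the log2 fold change was 0.11 (SE 0.14, 95% interval -0.17 to 0.39). LSC2 (YGR244C, chromosome VII, 978036 to 979319, minus strand) stood at 108, 82.7 and 126 CPM in deletion replicates 1, 2 and 3, against 62.4, 91.1 and 79.6 CPM in wild-type replicates 1, 2 and 3. Deletion replicate 2 lay below wild-type replicate 2, so the groups overlapped (log2 fold change 0.49, SE 0.24, 95% interval 0.02 to 0.97, adjusted p = 0.48, edgeR).

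The genes of the last steps varied most between libraries of 1 group. FUM1 (YPL262W, chromosome XVI, 47336 to 48802, plus strand), the fumarase of mitochondria and cytosol, stood at 271, 147 and 141 CPM in deletion replicates 1, 2 and 3, against 106, 204 and 167 CPM in wild-type replicates 1, 2 and 3. Deletion replicate 1 was the high library. Without it the log2 fold change was -0.095, against 0.28 (SE 0.23, adjusted p = 0.73, edgeR) with all libraries. MDH1 (YKL085W, chromosome XI, 279123 to 280127, plus strand), the mitochondrial malate dehydrogenase, stood at 228, 155 and 248 CPM in deletion replicates 1, 2 and 3, against 138, 339 and 221 CPM in wild-type replicates 1, 2 and 3. The value of wild-type replicate 2 was the highest of the 6. The MDH1 log2 fold change was -0.08 (SE 0.21, adjusted p = 0.95, edgeR) with all libraries and 0.26 without wild-type replicate 2. Neither gene separated the groups.

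**Figure D2:**
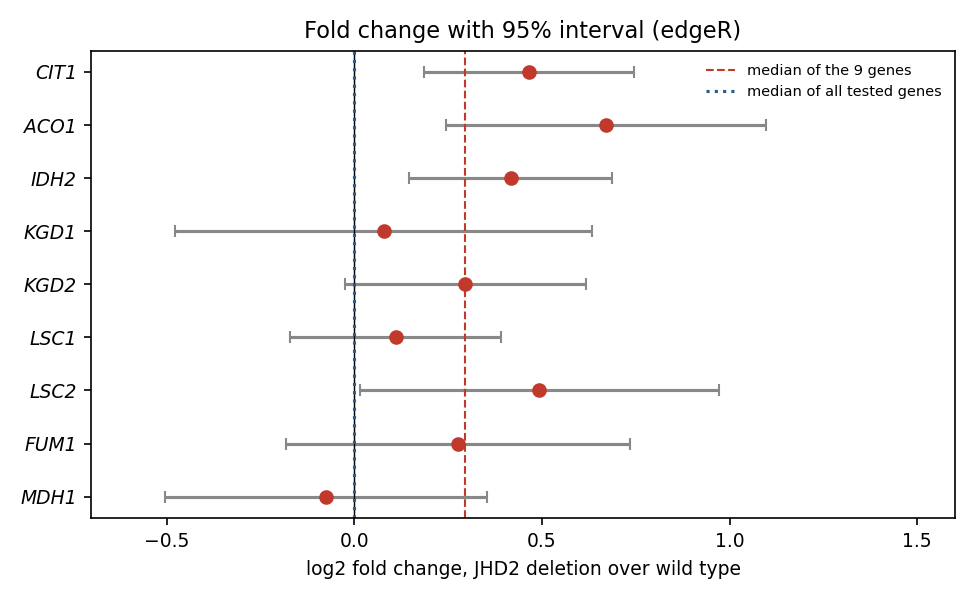
Log2 fold change of mRNA level, JHD2 deletion over wild type, for 9 TCA cycle genes in the order of the cycle, as points with 95% intervals from edgeR; dashed and dotted lines mark the median of the 9 genes (0.30) and of all tested genes (-0.00026). The intervals of CIT1, ACO1, IDH2 and LSC2 lie above 0 before adjustment for the number of genes, and MDH1 is the gene with a point below 0.

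The 9 mRNAs spanned a wide range of abundance, in the same order of group means in both strains. Levels of different genes can be set side by side here without scaling to length, since each RNA gives reads at its end only. In the deletion the order was IDH2 (1496 ± 65.6 CPM), CIT1 (1235 ± 133), LSC1 (752 ± 57.9), KGD2 (356 ± 25.7), MDH1 (210 ± 49.0), FUM1 (186 ± 73.4), ACO1 (162 ± 24.2), LSC2 (106 ± 21.8) and KGD1 (58.5 ± 9.41). There MDH1 and FUM1, and FUM1 and ACO1, overlapped between libraries, and the other neighbours in the order did not. Wild-type means were, in that order, IDH2 with 1116 ± 175 CPM, CIT1 899 ± 119, LSC1 696 ± 19.95, KGD2 287 ± 29.5, MDH1 233 ± 101, FUM1 159 ± 49.5, ACO1 97.9 ± 24.2, LSC2 77.7 ± 14.5 and KGD1 55.3 ± 7.74. In wild type LSC1 was separate from CIT1 above it and from KGD2 below it, while all other neighbours overlapped. Among all tested genes the wild-type levels of IDH2, CIT1 and LSC1 lay at percentiles 95.4, 94.1 and 92.2, and those of ACO1, LSC2 and KGD1 at 46.9, 37.5 and 24.4.

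Genes for parts of 1 enzyme differed severalfold in the reads at their ends. LSC1 had 7.38, 8.29 and 6.13 times the reads of LSC2 in deletion replicates 1, 2 and 3, against 11.3, 7.38 and 8.86 times in wild-type replicates 1, 2 and 3. The groups overlapped, and the log2 ratio was lower in the deletion by 0.33 (difference -0.33, exact two-sided permutation p = 0.20, where 0.10 is the smallest possible). Without 1 library this difference was -0.48 to -0.17, nearest to 0 without wild-type replicate 1 (-0.17) and deletion replicate 3 (-0.21). KGD1 had 0.139, 0.148 and 0.212 times the reads of KGD2 in deletion replicates 1, 2 and 3, against 0.198, 0.220 and 0.163 times in wild-type replicates 1, 2 and 3. That difference in log2 ratio was -0.23 (exact two-sided permutation p = 0.30), and it was 0.31 with the most-read cluster of each gene alone. The ratio of IDH1 to IDH2 could not be formed because IDH1 was not analysed here.

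No difference in pA site use between the strains passed the test in the TCA genes. By the gene-level F test of edgeR, which compares the fold change of each cluster with the rest of its gene, 0 of 8 tested members passed, against 0.21% of 2380 tested genes. At an unadjusted p under 0.05 there were 0 members as well, against 5.71% of all. The Simes and limma-voom tests called 0 members too. Among single clusters, 0 of the 21 tested TCA clusters passed, against 0.0168% of 5952, and the lowest adjusted p was 0.999. LSC2 had 1 cluster with 20 or more reads and was not tested. Weighted by reads, the mean position of the ends was farther from the stop codon in the deletion for 4 members and nearer for 4, with a median shift of 0.021 nt, beside -0.39 nt over all genes with a value.

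IDH2 divided its reads almost evenly between a pair of sites 109 nt apart. The nearer one, 157 nt past the stop codon, took 47.5%, 54.8% and 55.4% of IDH2 reads in deletion replicates 1, 2 and 3, against 55.7%, 58.2% and 53.9% in wild-type replicates 1, 2 and 3. The groups overlapped, deletion replicate 1 being the low library. Deletion libraries had a mean IDH2 end 209 ± 4.80 nt past the stop codon, against 205 ± 2.36 nt for wild-type libraries. CIT1 put most of its reads at 1 site, 121 nt past the stop codon: 83.8%, 88.0% and 89.6% in deletion replicates 1, 2 and 3, against 85.8%, 85.9% and 86.3% in wild-type replicates 1, 2 and 3. Deletion libraries lay on both sides of the wild-type ones. LSC1 had 78.4% ± 2.69 at its main site in deletion libraries and 77.2% ± 1.23 in wild-type libraries. KGD2 had 61.6% ± 7.54 at its main site in deletion libraries and 62.0% ± 6.73 in wild-type libraries.

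MDH1 was the member whose mean end did not overlap between groups, and it did not pass the test. Its mean end lay 128.3, 128.2 and 127.6 nt past the stop codon in deletion replicates 1, 2 and 3, against 122, 121 and 112 nt in wild-type replicates 1, 2 and 3. This is a shift of 9.59 nt downstream in the deletion (adjusted p = 0.95, edgeR). Deletion libraries lay downstream of every wild-type library in 3.78% of genes and upstream in 6.89%. The upstream site that ends in 15 A bases took 29.5%, 27.6% and 29.7% of MDH1 reads in deletion replicates 1, 2 and 3, against 31.4%, 34.6% and 41.0% in wild-type replicates 1, 2 and 3. The main site 162 nt past the stop codon took 66.4% ± 2.36 in deletion libraries and 56.0% ± 4.78 in wild-type libraries. The part of the A run in these counts was not tested.

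**Figure D3:**
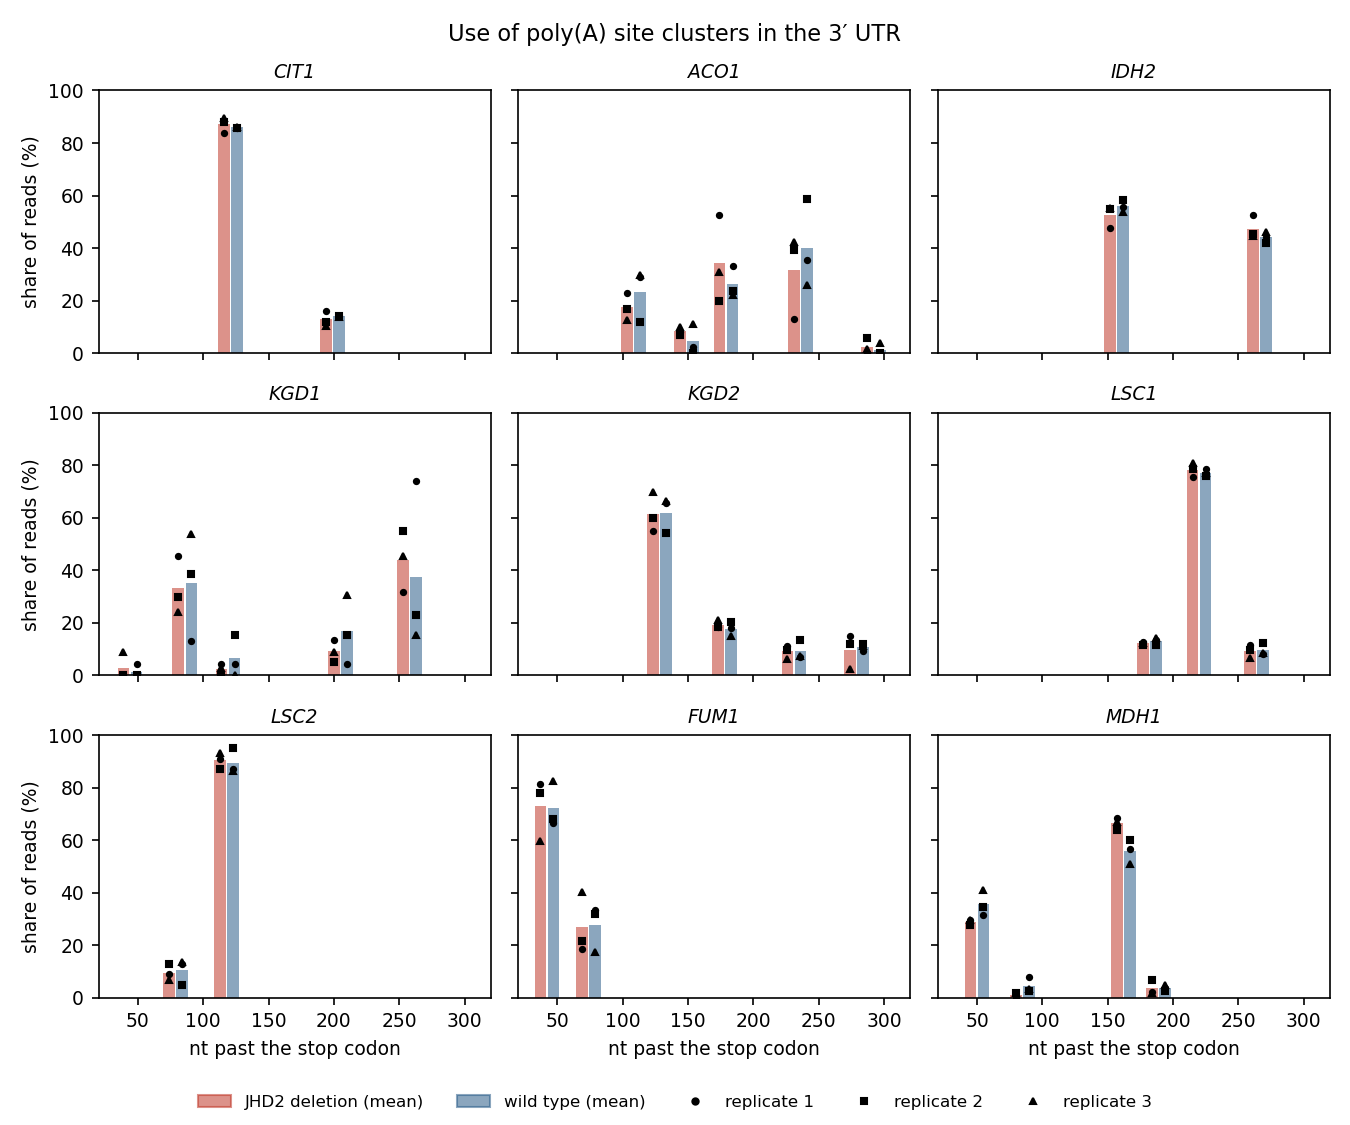
Share of the reads of each TCA cycle gene at its pA clusters past the stop codon (y axis, percent of all reads of the gene in a library) against distance from the stop codon in nt; bars are means of JHD2 deletion (red) and wild type (blue) and symbols single libraries, both drawn 5 nt to the left (deletion) and right (wild type) of the site so that they can be told apart. The bars of both strains are of like height at most sites, with wider scatter in ACO1 and KGD1, which have the fewest reads per site.

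ACO1 and KGD1 had the most clusters of the 9 genes. ACO1 used 6 clusters, of which the most-read one, 236 nt past the stop codon, held 13.1%, 39.4% and 42.3% of reads in deletion replicates 1, 2 and 3, against 35.6%, 58.8% and 25.9% in wild-type replicates 1, 2 and 3. The groups overlapped. KGD1 used 7 clusters, and its site 258 nt past the stop codon ranged from 31.8% to 55% in deletion libraries and from 15.4% to 73.9% in wild-type libraries. FUM1 ended close to its stop codon: the site 42 nt past it took 73.1% ± 11.7 in deletion libraries and 72.5% ± 8.82 in wild-type libraries. LSC2 put 90.5% ± 3.16 at the site 118 nt past the stop codon in deletion libraries and 89.5% ± 4.96 in wild-type libraries.

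Clusters inside coding regions were rare in these genes. In ACO1 the cluster 402 nt before the coding end was hit by 2, 8 and 2 reads of deletion replicates 1, 2 and 3, against 0, 1 and 2 reads in wild-type replicates 1, 2 and 3. As a share of ACO1 reads this was 5.79% ± 4.75 in deletion libraries and 4.43% ± 3.91 in wild-type libraries, and the groups overlapped. In KGD1 the cluster 105 nt into the gene was hit by 1, 1 and 2 reads of deletion replicates 1, 2 and 3 and by 0 of each wild-type library. That is 4 of 75 KGD1 reads of the deletion (5.33%, exact 95% interval 1.47 to 13.1%) against 0 of 49 in wild type. The wild-type count allows a share of up to about 6.12%, taken as 3 over 49 reads. This is an approximate one-sided limit, lower than an exact two-sided one would be. The cluster passed the minimum of 3 reads set by the authors through the deletion libraries alone. Its direction is therefore not independent of that filter, and no comparison is drawn from it. The interval and limit cover counting error only.

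Set beside the 2546 genes with 120 or more reads, the medians of the TCA genes were those of longer and more divided 3′ ends. Their main site lay a median of 157 nt past the stop codon, against 127.5 nt for all, and held a median of 62.5% of the reads of the gene, against 76.4%. Clusters with 10% or more of the reads spanned a median of 109 nt, against 45 nt. These medians describe 9 genes and were not tested. Not every member lay on that side: the main sites of CIT1 (121 nt), LSC2 (118 nt) and FUM1 (42 nt) were nearer to the stop codon than the median of all genes. CIT1, LSC1 and LSC2 had 87.0%, 78.1% and 90.6% of their reads at the main site, above the 76.4% of all genes. Of all genes, 2.95% had a main site nearer to or before the stop codon than that of FUM1. In no member did a cluster reach into the next annotated gene: 43 nt were left between the farthest LSC1 cluster and the tRNA gene SUF5, 44 nt between that of ACO1 and the tRNA gene YNCL0038W, and 119 nt or more in the others. KGD1 and MDH1 are followed by a gene on the same strand, AYR1 and HOT13, and the other 7 by a convergent one.

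In the wider pathway, a list of 45 genes around the cycle had 28 tested members, of which 1 rose, 0 fell and 27 did not pass by edgeR, where 1.07% of all tested genes were called higher and 0.238% lower. Its median log2 fold change was 0.18, beside -0.00026 over all tested genes, and 18 of the 28 lay above 0. At an unadjusted p under 0.05 there were 6 higher and 3 lower, beside 5.64% of all tested genes higher and 4.19% lower. No member of the list passed the pA usage test, in which 17 were tested. The gene that rose was SDH3, the cytochrome b subunit of succinate dehydrogenase, which works between succinyl-CoA ligase and fumarase. It stood at 268, 307 and 263 CPM in deletion replicates 1, 2 and 3, against 193, 130 and 188 CPM in wild-type replicates 1, 2 and 3, without overlap (log2 fold change 0.68, SE 0.18, adjusted p = 0.033, edgeR). Leaving out wild-type replicate 1 kept the SDH3 call, and leaving out any of the other 5 libraries lost it (adjusted p = 0.063 to 0.29, edgeR). It was also lost with DESeq2 (adjusted p = 0.19), with the most-read cluster alone (0.057) and with the replicate block (0.080).

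The other named genes of the list gave values on both sides of 0. KGD4, a small subunit of the alpha-ketoglutarate dehydrogenase complex, had a log2 fold change of 0.59 (SE 0.24). With SDH3 and SDH4 (0.58), which was named after its value was seen, all 3 tested members of that subgroup lay above 0. PDX1, which binds a component of the pyruvate dehydrogenase complex, had 0.66 (SE 0.24), and MPC1 of the mitochondrial pyruvate carrier -0.22 (SE 0.21). The isozyme gene CIT3 had -0.68 (SE 0.34), the opposite sign from CIT1, and every deletion library lay below every wild-type library, as in 6.95% of all tested genes. CIT3 stood at 28.4 ± 2.41 CPM in the deletion and 45.8 ± 4.20 CPM in wild type. These levels lay below those of KGD1 (58.5 and 55.3 CPM), the least-read of the 9 cycle genes, so CIT3 rests on few reads. Among carriers, DIC1 for dicarboxylates had -0.59 (SE 0.21) and ODC1 for oxodicarboxylates 0.42 (SE 0.17). Of the glyoxylate genes, AGX1, an aminotransferase, had 0.38 (SE 0.27) and ICL1, isocitrate lyase, 0.19 (SE 0.37). The activator subunits HAP4 and HAP2 had 0.45 (SE 0.18) and 0.44 (SE 0.23). HAP4 stood at 379, 302 and 357 CPM in deletion replicates 1, 2 and 3, against 318, 143 and 279 CPM in wild-type replicates 1, 2 and 3, so that the groups overlapped and wild-type replicate 2 was the low library. None of these genes other than SDH3 passed over all genes, with adjusted p of 0.23 or more by edgeR.

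**Figure D4:**
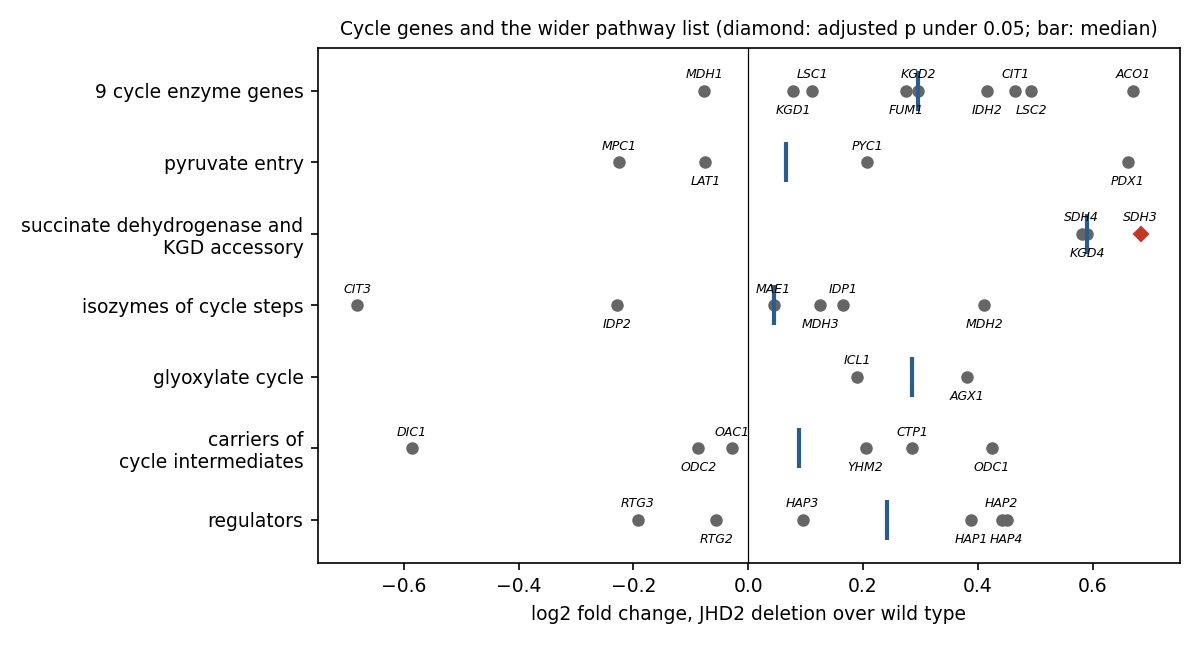
Log2 fold change of mRNA level, JHD2 deletion over wild type, for 9 TCA cycle enzyme genes (top) and tested genes of the wider list by subgroup, without 1 gene that is not reported here; points are genes, blue bars medians over all 28 tested genes by subgroup, and the red diamond marks SDH3, the gene with an adjusted p under 0.05. The cycle genes and the succinate dehydrogenase subgroup lie mostly above 0, while the isozymes and carriers lie on both sides.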

How the data were processed

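The deposited table holds unnormalized read counts per pA cluster in 6 libraries. Adapters were removed and 4 bases trimmed from each read, per the series description. Reads longer than 15 bp were then placed on sacCer3 by Bowtie2 with soft clipping, and a mapping quality under 10, over 5% mismatches or fewer than 2 unaligned T at the 5′ end led to removal. Ends within 24 bp formed a cluster, given to a gene extended by up to 1000 bp. The authors kept clusters with 3 or more reads and at least 5% of the reads of the gene, so column totals are not library depths. Some kept clusters held less than 5% over the 6 libraries together, and more in a single library. The ACO1 cluster 292 nt past the stop codon held 2.05% in all and 5.63% in deletion replicate 2. The sources used here give no Bowtie2 version.

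Deposited positions count from 0: with 1 added, 94.7% of main sites end in A and 0 are followed by A, against 31.1% ending in A as deposited. Positions are printed with 1 added. Annotation was RefSeq R64 (4013 of 4014 gene identifiers found).

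Levels were sums over the clusters of a gene, tested with edgeR 4.0.16 in R 4.3.3 with TMM scaling, filterByExpr and a model of group alone; p-values were adjusted over all tested genes by Benjamini-Hochberg, with a threshold of 0.05. SEs came from the F statistic. Site usage was tested with diffSpliceDGE on clusters with 20 or more reads. Ratios of subunit genes were compared by exact permutation. Alternatives used limma 3.58.1 and DESeq2 1.42.0, other scaling, filters and cluster choices, a replicate block and leaving out each library. The tests were tried on simulated counts. Of the wider list, the rule named genes past the threshold and the 2 lowest p per subgroup; SDH4 was named after its value was seen, and 1 gene that the rule names is not reported here. The members and lists were chosen with earlier results of these data known.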

Additional observations from a re-analysis of the deposited data

How the results depend on the processing

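For mRNA level, 0 members were called under every alternative run except without wild-type replicate 2, where CIT1 was called, so leaving out 1 library gave 0 to 1 members. Among the runs without 1 library, that run gave the lowest log2 fold changes of ACO1 (0.52), IDH2 (0.29) and KGD2 (0.22). It gave the highest of FUM1 (0.47) and MDH1 (0.26). The median log2 fold change of the 9 genes was 0.25 to 0.38 without 1 library. Over all genes, 44 were called, against 26 with DESeq2, 27 with the most-read cluster alone and 30 to 51 without 1 library. DESeq2 gave no adjusted p for 979 of the tested genes. Site usage was called in 5 genes, none a member, against 1 with the Simes test, 2 with limma-voom, 2 with a cluster minimum of 10, 3 with none, 1 with clusters past the stop codon and 0 to 4 without 1 library. Members near 0 changed sign: MDH1 had 0.17 with the most-read cluster and -0.39 to 0.26 without 1 library, KGD1 -0.0080 past the stop codon and -0.078 to 0.19 without 1 library, and FUM1 -0.095 to 0.47. The KGD1 over KGD2 difference became 0.31 with the most-read cluster.

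Mean 3′ ends moved, without 1 library, by -2.23 to 0.043 nt in CIT1, -6.13 to 9.54 in ACO1, 0.923 to 5.23 in IDH2 (3.69 with all libraries, lowest without deletion replicate 1), -7.25 to 46.7 in KGD1, -5.85 to 5.55 in KGD2, -0.20 to 1.10 in LSC1 and -2.35 to 1.12 in FUM1. The KGD1 value was -160 nt with no cluster minimum, where the clusters in its coding region enter. The MDH1 shift kept its sign (6.37 to 11.5 nt). Same-numbered libraries did not deviate together (correlations -0.094, -0.028 and -0.011). Pairing by number was thus not seen, though with 3 libraries per group this check is too weak to exclude it. With the replicate block, 33 genes were called for level and 2 for usage, 0 of them members. The IDH1 over IDH2 alternatives were not run. Depth limits KGD1, ACO1 and LSC2 most, with 124, 292 and 202 reads in all.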

Other observations

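A few reads of neighbouring genes ended on the strand opposite a TCA gene. A cluster given to DOM34, 994 nt past its stop codon, lay opposite the 3′ UTR of CIT1 and held 0, 0 and 2 reads in deletion replicates 1, 2 and 3, against 4, 1 and 2 reads in wild-type replicates 1, 2 and 3. A cluster given to MPC3, also 994 nt past its stop codon, lay opposite the coding region of LSC2 with 4 reads in all. A cluster given to RRP14 lay opposite the 3′ UTR of MDH1 and held 1, 1 and 0 reads in deletion replicates 1, 2 and 3, against 2, 2 and 1 reads in wild-type replicates 1, 2 and 3.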
